A study of Mus musculus with 12 samples.

Results

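The inhibitor Kira8, given alone, was compared with no inhibitor in mouse Th17 cells, a kind of helper T cell named for its cytokine IL-17. The comparison takes the 3 libraries titled Kira8 and the 3 titled None, which are 6 of the 12 RNA sequencing libraries in the series. All cells were wild-type T cells from lymph nodes that had been differentiated from the naive state and kept in RPMI medium with serum, and the inhibitor was given for 4 h. The other groups were Stattic (a STAT3 inhibitor) and Kira8+Stattic, 3 libraries each of the same kind of cells. They enter here only through the shared filter, scaling and estimate of spread, and through a second measurement of the Kira8 effect near the end. The labels give no dose and no time for None. They do not say whether None received solvent, nor whether the replicates are separate cultures or animals, so p-values here measure only how far these libraries spread, which can be a technical spread.

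Kira8 binds the kinase domain of IRE1alpha, the product of Ern1, and by that lowers its RNase activity. IRE1alpha sits in the membrane of the endoplasmic reticulum (ER) and senses unfolded protein. Its RNase cuts Xbp1 mRNA, and the spliced message encodes XBP1s, a transcription factor that, beside ATF6, raises genes for chaperones, disulfide isomerases, protein translocation and secretion. The PERK branch of the same response slows translation and raises ATF4 and its targets. Activated T cells build ribosomes, nucleotides and lipids under signals from the T cell receptor, costimulation, IL-2, PI3K and mTORC1, while resting T cells hold FOXO factors in the nucleus and express genes of homing, cell cycle arrest and catabolism. Kira8 acts on a protein, so the level of the Ern1 transcript does not check whether it worked.

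The None libraries held 62.9, 63.0 and 63.3 megacounts (M), and Kira8 replicates 1, 2 and 3 held 59.1, 19.8 and 57.6 M. Kira8 replicate 2 stood apart. Genes of the mitochondrial genome took 61.5% of its counts, against 3.38% to 5.22% in the 10 libraries other than it and Stattic replicate 2. Its Spearman correlation over genes with these 10 was 0.414 to 0.556, where theirs with each other was 0.596 or more. Stattic replicate 2 was the shallowest library, at 9.3 M counts, with 10.7% of them mitochondrial and 19.1% on the predicted gene Gm10800. Results are given with all 12 libraries and again without this pair. The values that describe genes come from the other 10, with n = 3 for None and n = 2 for Kira8, in the order of replicates 1, 2 and 3 and of replicates 1 and 3. Levels are given as CPM, a gene's count per megacount of its library, scaled by TMM, a factor that evens out library composition, and changes are log2 values with their standard error. Defining T cell transcripts, 10 of them, summed to 3238 to 3833 CPM in None and 2721 to 2963 CPM with Kira8. None of them was at 0, 2 fell (1 without Kira8 replicate 1 and 0 without replicate 3) and none rose. Of 12 Th17 markers 4 fell (1 and 1) and 1 rose (1 and 0). In Kira8 replicate 2 the T cell transcripts summed to 534 CPM with mitochondrial genes left out. Of 14 markers of B cells 7 fell (3 without Kira8 replicate 1 and 2 without replicate 3), with sums of 339 to 417 CPM in None and 174 to 200.2 CPM with Kira8. Of 13 tested markers of CD8 T and NK cells 9 fell (8 and 7 without the same libraries) and none rose, with sums of 1238 to 2127 CPM against 204 to 226 CPM. Myeloid and stromal markers stayed below 100 CPM in sum in these 5 libraries, and 1 of 14 and none of 5 tested were called. Col1a1, Col1a2 and Adgre1, defining genes of fibroblasts and macrophages, averaged under 1 CPM. Their part in the results that follow was not tested, and in bulk RNA fewer cells of a type cannot be told apart from less RNA per cell.

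With all 12 libraries, edgeR's quasi-likelihood test called 0 of 20993 genes (0%) at a Benjamini-Hochberg adjusted p under 0.05. At the same threshold without adjustment it had 2689. DESeq2 called 1141 in the same libraries, limma voom 3 and voom with sample quality weights 4672. The common dispersion of that fit was 1.01, against 0.143 in the 10 libraries. There, 4097 of 21239 genes were called (19.3%), 2060 of them higher with Kira8 (9.7%) and 2037 lower (9.59%). The median called change was 2.07-fold among the higher genes and 2.04-fold among the lower, and 299 and 242 genes changed at least 4-fold. The called groups did not overlap for 2054 and 2029 of these genes, beside 25.3% and 22.4% of all genes tested without overlap in each direction. Without Kira8 replicate 1 the count was 1802, and without replicate 3 it was 1642, each leaving a single Kira8 library whose spread is assumed to be that of the other groups. Beside each count of list members below, the pair in parentheses gives the count without Kira8 replicate 1 and without replicate 3. Over all genes tested the median log2 change was 0. The shares over all genes include weakly expressed and noncoding genes, which were called less often. Of protein-coding genes with a mean of 10 to 100 CPM 16.4% were called higher and 17.3% lower. At 100 CPM or more the shares were 17.2% and 19.3%, so a list near these shares does not stand out. A called gene is said to have risen or fallen.

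**Figure D1:**
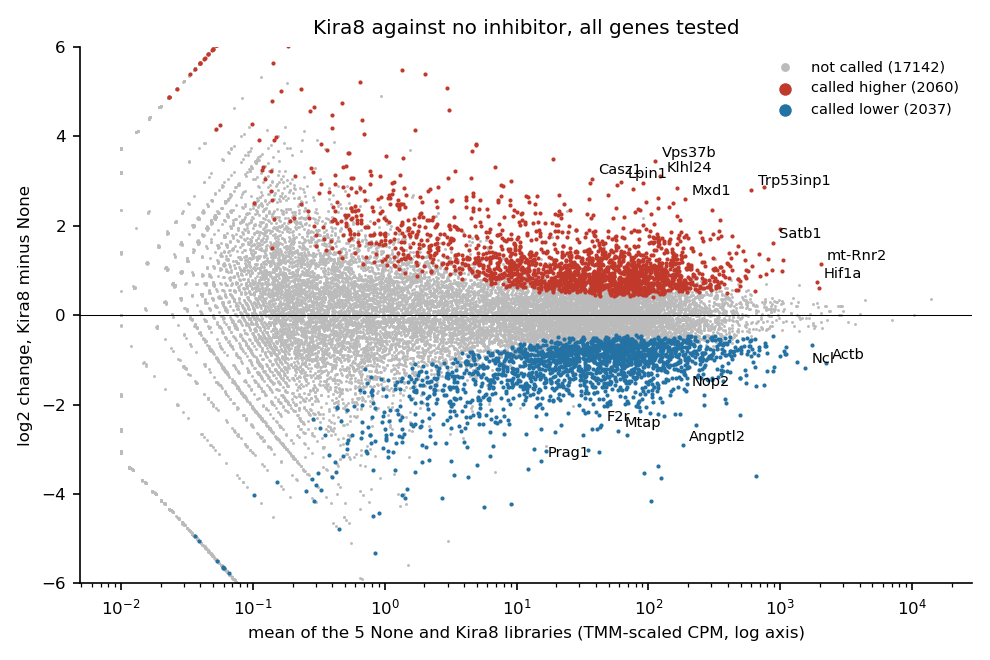
Log2 change of every gene tested, Kira8 minus None in the 10-library fit, against its mean over the 5 None and Kira8 libraries in TMM-scaled CPM on a log axis; red and blue points are the 2060 genes called higher and the 2037 called lower. Changes beyond 6 in size (78 genes above, 355 below, nearly all at the lowest levels) lie outside the frame. Called genes are spread over all levels from about 1 CPM upward in both directions.

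Among the genes that rose most were adaptors, repressors of growth and membrane transporters. Klhl24 (ENSMUSG00000062901, chromosome 16, 20097542 to 20129221, plus strand), a substrate adaptor of a ubiquitin ligase, had 25.9, 19.5 and 45 CPM in None and 265 and 257 CPM with Kira8. Every Kira8 library lay above every None library, by 8.66-fold on the means (3.11 ± 0.28, adjusted p = 5.26e-05). Mxd1 (ENSMUSG00000001156, chromosome 6, 86647042 to 86669161, minus strand) encodes MAD1, which pairs with MAX and represses genes that MYC activates. It had 58.6, 67.9 and 60.8 CPM in None and 374 and 385 CPM with Kira8 (2.60 ± 0.16, adjusted p = 1.04e-05), with little spread within either group. Trp53inp1, a p53 target that also binds LC3-type proteins, had 152, 176 and 203 CPM in None and 1167 and 1318 CPM with Kira8 (2.81 ± 0.18, adjusted p = 1.08e-05). Sestd1, a lipid-binding protein, went from 28.9, 39.9 and 29.8 to 203 and 175 CPM (2.52 ± 0.17), and Ndrg1, a stress and hypoxia gene, from 35.9, 76.4 and 29.3 to 316 and 366 CPM (2.85 ± 0.34). Among receptors and transporters, Ramp3, a partner of calcitonin-family receptors, was at 1.73, 2.19 and 0.560 CPM in None and 16.5 and 13.1 CPM with Kira8 (3.31 ± 0.44). The glutamate transporter Slc1a1 was at 2.32, 0.523 and 4.34 against 19 and 19.5 CPM and the peptide transporter Slc15a2 at 14.1, 7.68 and 26 against 127 and 112 CPM. The Slc1a1 change was 3.01 ± 0.53, and 3.75 without None replicate 3. Foxj1, a forkhead factor that restrains T cell activation, rose 6.37-fold (2.67 ± 0.24), the kinase Dyrk1b, which favours cell cycle exit, 6.24-fold (2.64 ± 0.30) and Ypel2 7.72-fold (2.95 ± 0.29). H2-K2, a class I MHC gene whose reads can be shared with its close relatives, went from 11.8, 10.9 and 12.3 to 69.8 and 71 CPM (2.59 ± 0.19).

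Among the genes that fell most, cytokines and cytotoxic genes apart, were surface receptors, secreted factors and signalling adaptors. F2r, the thrombin receptor PAR1 (ENSMUSG00000048376, chromosome 13, 95601803 to 95618487, minus strand), had 64.8, 59.6 and 69.4 CPM in None and 11.1 and 12.3 CPM with Kira8. F2rl2, the related receptor PAR3, had 10.5, 7.31 and 9.86 CPM in None and 0.537 and 0.401 CPM with Kira8. Neither gene's groups overlapped, and the log2 changes were -2.47 ± 0.16, adjusted p = 1.08e-05, and -4.29 ± 0.44, adjusted p = 0.000114. Angptl2 (ENSMUSG00000004105, chromosome 2, 33216069 to 33247717, plus strand), a secreted angiopoietin-like factor, had 294, 254 and 294 CPM in None and 44.8 and 30.5 CPM with Kira8 (-2.90 ± 0.22, adjusted p = 2.25e-05), and its relative Angptl4 fell too (-2.62 ± 0.31). Prag1, a pseudokinase scaffold, went from 20.6, 28.9 and 22.1 to 2.18 and 2.80 CPM (-3.26 ± 0.24, adjusted p = 1.9e-05), and Tns4, a tensin that links integrins to the cytoskeleton, from 14.8, 12.9 and 29.8 to 1.99 and 1.54 CPM (-3.44 ± 0.57). Car12, a membrane carbonic anhydrase, fell 6.46-fold (-2.69 ± 0.27), the orphan receptor Gpr83 7.95-fold (-2.99 ± 0.40) and Themis2, a signalling adaptor of B and myeloid cells, 6.29-fold (-2.65 ± 0.27). The death receptor Tnfrsf21 was 6.32-fold lower (-2.66 ± 0.46), and Tnfrsf13c, the BAFF receptor of B cells, 7.56-fold lower (-2.92 ± 0.37), beside the lower B cell markers given above. Among secreted T cell products, lymphotoxin alpha, Lta, had 393, 351 and 288 CPM in None and 60.2 and 64.7 CPM with Kira8 (-2.46 ± 0.22, adjusted p = 4.95e-05). The chemokines Xcl1 (-3.05 ± 0.31) and Ccl9 (-2.56 ± 0.32) and the growth factor Csf2 (-3.15 ± 0.53) fell as well. Xcl1 is also on the list of CD8 T and NK cell markers.

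**Figure D2:**
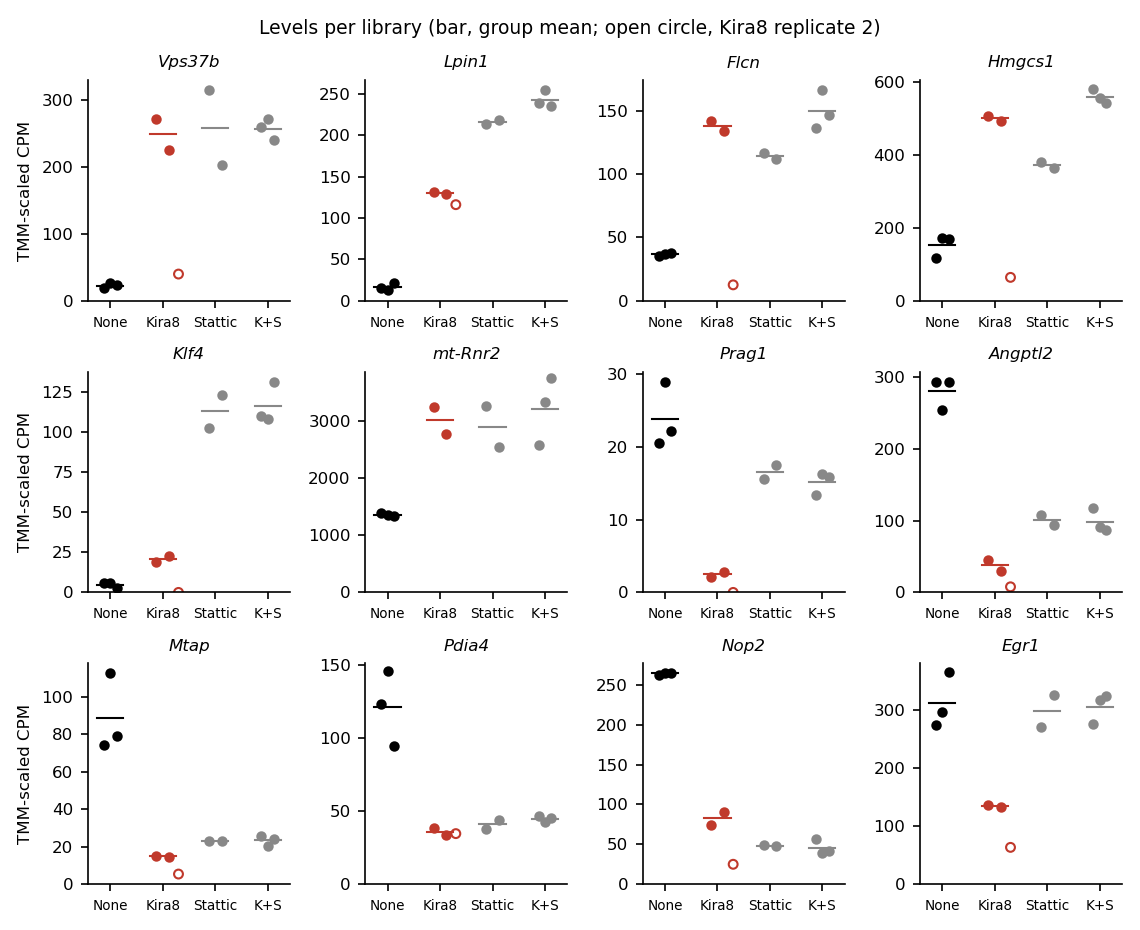
TMM-scaled CPM of 12 genes in each library; points are libraries and bars group means of None (n = 3), Kira8 (n = 2), Stattic (n = 2) and Kira8+Stattic (K+S, n = 3), and the open circle is Kira8 replicate 2 with mitochondrial genes left out (not drawn for mt-Rnr2). In all 12 panels the 2 filled Kira8 points lie outside the range of the 3 None points.

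Several abundant transcripts moved as well. Ubb, which encodes ubiquitin, rose by 0.91 ± 0.22. Hif1a, the oxygen-regulated transcription factor, had 1237, 1838 and 1406 CPM in None and 2431 and 2581 CPM with Kira8 (0.75 ± 0.18, adjusted p = 0.0116). Ctla4, an inhibitory receptor, had 542, 688 and 611 CPM in None and 1228 and 1229.6 CPM with Kira8 (1.002 ± 0.16, adjusted p = 0.00143). The chromatin organizer Satb1 had 445, 555 and 443 CPM in None and 1397 and 1573 CPM with Kira8 (1.63 ± 0.16, adjusted p = 9.43e-05). Both mitochondrial ribosomal RNAs rose, mt-Rnr2 with 1396, 1357 and 1337 CPM in None and 3255 and 2771 CPM with Kira8 (1.14 ± 0.19, adjusted p = 0.00156) and mt-Rnr1 by 1.22 ± 0.19. Of the 13 mRNAs of the mitochondrial genome none rose, 1 fell and 12 were not called. The call of mt-Nd3, which changed by -0.59 ± 0.19 (adjusted p = 0.0488), was lost without Kira8 replicate 1 (adjusted p = 0.117) or replicate 3 (0.358), None replicate 1 (0.0902) or 3 (0.11) and Kira8+Stattic replicate 2 (0.0706) or 3 (0.0696). Of 22 mitochondrial tRNAs 5 rose. Other abundant genes fell. Beta-actin, Actb, had 3541, 2545 and 2358 CPM in None and 1267 and 1423 CPM with Kira8 (-1.06 ± 0.20, adjusted p = 0.00314). Lactate dehydrogenase A, Ldha, had 1734, 1748 and 1541 CPM in None and 899 and 732 CPM with Kira8 (-1.04 ± 0.18, adjusted p = 0.00192). Nucleolin, Ncl, had 1614, 2678 and 1668 CPM in None and 846 and 916 CPM with Kira8 (-1.17 ± 0.24, adjusted p = 0.00472). The translation factor Eif5a had 1269, 1132 and 1074 CPM in None and 505 and 529 CPM with Kira8 (-1.16 ± 0.19, adjusted p = 0.00131). Actb and Ldha are often used as internal controls, and both were called lower here. Several of these calls rested on both Kira8 libraries: without Kira8 replicate 1 the adjusted p was 0.0554 for Actb, 0.0629 for Ncl and 0.0727 for Hif1a, and without replicate 3 it was 0.0524 for Ldha, 0.115 for Hif1a and 0.136 for Ubb.

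In the secretory pathway, the called genes of protein folding, translocation and glycosylation were lower. In ER-associated degradation 21.7% of genes were called higher and 4.35% lower. Of protein-coding genes at 10 to 100 CPM 16.4% were higher and 17.3% lower, and at 100 CPM or more 17.2% and 19.3%. The share higher in ER-associated degradation was thus near that of other well-expressed genes. Of 26 lectins, disulfide isomerases and folding factors 14 fell (9 and 7), none rose and 12 were not called (median log2 change -0.77). Pdia4 and Pdia6, which form disulfide bonds in new proteins, had 123, 146 and 94.5 CPM in None and 38 and 33.3 CPM with Kira8, and 216, 286 and 176 CPM in None and 91.7 and 82.7 CPM with Kira8; their changes were -1.76 ± 0.19 and -1.37 ± 0.22. The Kira8 values of both lay well below the lowest None library. Txndc5, another isomerase, changed by -0.94 ± 0.15. Of 37 genes of translocation and N-glycosylation 13 fell (3 and 2) and none rose, among them Rpn1 (-1.23 ± 0.18, adjusted p = 0.000768) and Rpn2 (-0.999 ± 0.16, adjusted p = 0.00114), subunits of the oligosaccharyltransferase. Ddost, a further subunit, changed by -0.89 ± 0.19, a call lost without Kira8 replicate 1 (adjusted p = 0.0508) or 3 (0.088). Of 23 ER-associated degradation genes 5 rose (2 and 0) and 1 fell (0 and 0), and leaving out any 1 of None replicates 1 and 3 or of the Kira8+Stattic libraries left 2 or 3 of the rises. Ufd1, part of the complex that pulls proteins out of the ER, had 55.9, 59.3 and 57.3 CPM in None and 90.6 and 109 CPM with Kira8 (0.80 ± 0.14, adjusted p = 0.00241, and adjusted p = 0.0614 without Kira8 replicate 3). Of 29 vesicle coat and cargo receptor genes 2 rose (0 and 0) and 1 fell (0 and 0), at or below the shares over all genes.

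Promoters of ER chaperone genes hold a paired element, CCAAT followed by 9 bases and CCACG, that ATF6 and NF-Y bind. Promoter sequences from RefSeq (GRCm38.p6, the assembly that mm10 names) matched 12496 of the 21239 genes tested by symbol. In the 250 bases upstream of the start site, on either strand, the pair was found in 21 promoters (0.168%), in 6 of 1547 genes that fell (0.388%), in 1 of 1505 that rose (0.0664%) and in 14 of 9444 that were not called (0.148%). The 6 that fell are all ER chaperones, isomerases or their partners, and Pan2, a deadenylase subunit, is the gene that rose. Hsp90b1, Creld2, Dnajc3 and Calr were named after their values were seen. The 6 were picked for carrying the pair and for having fallen, so that they share both was fixed in advance. The pair was not found for every folding gene that fell: Pdia4 and Txndc5 are not among the 6. The elements are shown with the paired boxes in capitals, 5′ to 3′ on the gene's strand. Where the element runs on the other strand, the capitals read CGTGG and ATTGG. The Hspa5 stretch lies in an exon of the annotation and is cut to the element and its flanks.
Hspa5, chr2:34772020-34772048, plus strand: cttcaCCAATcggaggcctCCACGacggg
Pdia6, chr12:17266471-17266529, plus strand: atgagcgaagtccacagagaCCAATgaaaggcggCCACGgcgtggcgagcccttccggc
Hsp90b1, chr10:86705618-86705676, minus strand: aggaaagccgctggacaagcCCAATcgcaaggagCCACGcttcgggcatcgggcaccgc
Creld2, chr15:88819500-88819558, plus strand: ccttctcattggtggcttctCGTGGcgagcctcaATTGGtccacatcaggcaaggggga
Dnajc3, chr14:118937807-118937865, plus strand: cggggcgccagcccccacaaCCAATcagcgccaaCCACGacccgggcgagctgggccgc
Calr, chr8:84847055-84847113, minus strand: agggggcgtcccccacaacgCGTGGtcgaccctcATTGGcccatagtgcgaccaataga
Beside these sequences, Hspa5, the chaperone BiP, had 907, 1660.0 and 846 CPM in None and 474 and 482 CPM with Kira8, and Hsp90b1, the chaperone GRP94, 566, 1033 and 622 CPM in None and 383 and 403 CPM with Kira8. None replicate 2 was the highest library for Hspa5, and no Kira8 library reached any None library for either gene. The changes were -1.25 ± 0.29 for Hspa5, -0.91 ± 0.24 for Hsp90b1, -1.17 ± 0.25 for Creld2, -0.82 ± 0.17 for Dnajc3 and -0.80 ± 0.17 for Calr, the lectin chaperone calreticulin. Without Kira8 replicate 1 or 3 the adjusted p was 0.0815 or 0.0818 for Hspa5, 0.135 or 0.116 for Hsp90b1 and 0.0846 or 0.0599 for Calr, and without replicate 3 it was 0.102 for Creld2 and 0.0946 for Dnajc3. The shorter letters TGACGTGG, a site of XBP1 and ATF6, were found in 0.646% of promoters of genes that fell and 0.664% of those that rose, beside 0.664% of all. A match is only a description of the letters in this window.

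Among transcripts of the IRE1 pathway itself, Ern1 passed the test narrowly, Xbp1 less so, and most partners were not called. Ern1 had 11.4, 24.9 and 22.3 CPM in None and 33.6 and 35.6 CPM with Kira8 (0.83 ± 0.27, adjusted p = 0.0495). Xbp1, whose spliced and unspliced forms gene counts cannot separate, had 234, 223 and 179.6 CPM in None and 147 and 111 CPM with Kira8 (-0.72 ± 0.18, adjusted p = 0.0146). Of 12 IRE1 signalling partners 1 rose (0 and 0), 3 fell (1 and 0) and 8 were not called. The Ern1 call was lost when any single library other than None replicate 2 was left out (adjusted p = 0.0513 to 0.222), and the Xbp1 call without Kira8 replicate 3 (0.219). On the PERK side, Atf4 had 208, 233 and 186 CPM in None and 316 and 399.7 CPM with Kira8 (0.78 ± 0.17, adjusted p = 0.00734, and adjusted p = 0.133 without Kira8 replicate 3). In all, 12 of 32 genes of the ATF4 pathway rose (12 and 6), with 3 lower (0 and 1). Ppp1r15a, which encodes the phosphatase subunit GADD34 that reverses PERK signalling, had 27.9, 33.1 and 22.2 CPM in None and 85.7 and 95.9 CPM with Kira8 (1.71 ± 0.20, adjusted p = 0.000215). Ddit4, an inhibitor of mTORC1 also known as REDD1, had 48.9, 41.4 and 50.8 CPM in None and 112 and 161 CPM with Kira8 (1.54 ± 0.19, adjusted p = 0.00033). Of 20 aminoacyl-tRNA synthetases, many of which are ATF4 targets, 6 fell (4 and 4) and 2 rose (2 and 0); Rars changed by -1.12 ± 0.16, Hars by -1.07 ± 0.16 and Kars by -1.12 ± 0.18. Of 24 amino acid transporters 6 rose (5 and 3), among them Slc38a2, a starvation-induced carrier (216, 302 and 287 against 578 and 719 CPM, 1.27 ± 0.20), and Slc38a9, the arginine sensor of the lysosome (1.13 ± 0.17), and 3 fell (2 and 3).

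Nearly all genes of rRNA processing fell, while the ribosomal protein genes did not pass the test. Of 63 snoRNP and rRNA processing genes 56 fell (42 and 47), 1 rose and 6 were not called, with a median of -1.21. Rrs1, an assembly factor of the large subunit, had 113, 141 and 115 CPM in None and 26.7 and 32.2 CPM with Kira8 (-2.06 ± 0.18, adjusted p = 4.95e-05). Gar1, part of the particles that make pseudouridine in rRNA, had 84.3, 85.2 and 73.3 CPM in None and 23.4 and 27.3 CPM with Kira8 (-1.67 ± 0.17). Noc4l had 152, 146 and 154 CPM in None and 48.9 and 50.7 CPM with Kira8 (-1.60 ± 0.17). In each of these the Kira8 libraries lay far below the lowest None library. Ccdc86, a nucleolar protein outside the list, had 73.8, 72.6 and 68.2 against 17 and 20.2 CPM (-1.94 ± 0.17). RNA polymerase I and its factors, which make the rRNA precursor, had 10 of 20 lower (6 and 7). Among them were Cd3eap, a subunit of the enzyme, at 55.4, 42.6 and 52.6 against 10.8 and 11.5 CPM (-2.17 ± 0.21, adjusted p = 8.08e-05) and Polr1b at -1.70 ± 0.25. For RNA polymerase III 7 of 21 fell (4 and 2), and the one that rose (1 and 1) was its repressor Maf1 (68.8, 42.9 and 57.3 against 114 and 107 CPM, 0.97 ± 0.19, adjusted p = 0.00378). Of 40 tRNA modification enzymes 18 fell (4 and 5) and none rose, with the methyltransferase Nsun2 at -1.45 ± 0.22 and the pseudouridine synthase Pus7 at -1.62 ± 0.24. Translation initiation factors had 15 of 39 lower (4 and 6), among them Eif2s1, the subunit that PERK phosphorylates (-1.07 ± 0.17), and Eif2b3, part of its exchange factor (-1.75 ± 0.24). Of 47 large and 32 small cytosolic ribosomal protein genes 0 were called by edgeR and 0 by DESeq2, with medians of 0.10 and 0.16. With an unadjusted p under 0.05, edgeR had 0 in either list and DESeq2 1 in each. The promoter of Nop2, a nucleolar methyltransferase at -1.68 ± 0.19, named after its values were seen, is shown as an example of a gene that fell, with its E-box, the site CACGTG of MYC-family and related factors, in capitals.
Nop2, chr6:125131803-125131848, plus strand: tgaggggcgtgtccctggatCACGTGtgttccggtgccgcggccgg
CACGTG was present upstream of 9.95% of the genes that fell and 8.57% of those that rose, beside 7.75% of all promoters.

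Among nuclear genes for mitochondrial proteins, those of the mitochondrial ribosome that were called were all lower, and so were many of protein import. Of 78 mitochondrial ribosomal proteins 29 fell (6 and 4) and none rose (median -0.56), with Mrpl12 at 81.2, 80.8 and 73.9 against 35.6 and 37.3 CPM (-1.11 ± 0.21) and Mrpl42 at 42.6, 37.3 and 39.1 against 16.8 and 17.9 CPM (-1.19 ± 0.21). Of 36 import and chaperone genes 19 fell (6 and 9), including Tomm40, the channel of the outer membrane (133, 121 and 112 against 45.8 and 50.8 CPM, -1.34 ± 0.20, adjusted p = 0.000768), and Timm8a1, a carrier chaperone (-1.52 ± 0.18, adjusted p = 0.000269). Of 52 nuclear genes of complex I and ATP synthase 5 fell (1 and 1) and 1 rose, beside 9.59% and 9.7% over all genes. Atp5g1, a subunit of the rotor, was the member with the smallest adjusted p (37.2, 32.4 and 32.1 against 15.4 and 14.6 CPM, -1.18 ± 0.17, adjusted p = 0.000752). The mitochondrial ribosomal count was 19 without None replicate 1. Its median log2 change was -0.57 without Kira8 replicate 1 and -0.56 without replicate 3.

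Most genes of purine and pyrimidine synthesis fell. Of 30 purine and pyrimidine genes 20 fell (8 and 8), 1 rose and 9 were not called. Ppat, the first committed enzyme of purine synthesis, had 119, 181 and 154 CPM in None and 44.4 and 55.1 CPM with Kira8 (-1.60 ± 0.20, adjusted p = 0.000288). Gart had 208, 269 and 295 CPM in None and 80.5 and 82.1 CPM with Kira8 (-1.66 ± 0.22). Later steps fell with them, with Adsl at -1.39 ± 0.19 and Atic at -1.28 ± 0.18. In the serine, glycine and folate list 10 of 24 fell (6 and 8) and 2 rose (2 and 1). Shmt1, which passes a carbon from serine to folate, had 99.96, 133 and 119 CPM in None and 28.4 and 28.8 CPM with Kira8 (-2.04 ± 0.18, adjusted p = 4.95e-05). The glycine cleavage gene Gcsh had 46.9, 55 and 36.6 CPM in None and 11 and 10.3 CPM with Kira8 (-2.12 ± 0.21, adjusted p = 9.3e-05). The folate carrier Slc19a1 had 119.6, 148 and 143 CPM in None and 41.6 and 43.4 CPM with Kira8 (-1.69 ± 0.19). The pentose phosphate list had 5 of 12 lower (3 and 3), and 8 without Kira8+Stattic replicate 1, with Prps2, which makes the ribose donor of nucleotides, at -1.34 ± 0.17, adjusted p = 0.000328. Polyamine genes were called in both directions. Those lower included Mtap (ENSMUSG00000062937, chromosome 4, 89137122 to 89181081, plus strand), which recycles the by-product of polyamine synthesis, at 74.6, 113 and 79.3 against 14.9 and 14.6 CPM (-2.59 ± 0.21, adjusted p = 3.59e-05), spermidine synthase Srm at -2.25 ± 0.25 and S-adenosylmethionine decarboxylase Amd1 at -1.60 ± 0.20. Smox, which oxidizes spermine, had 57.4, 56.3 and 42.2 CPM in None and 274 and 281 CPM with Kira8 (2.42 ± 0.16, adjusted p = 1.49e-05). In all, 6 of 15 fell (5 and 5) and 3 rose (2 and 2).

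The glycolysis and citric acid cycle lists had genes called in both directions, with more lower than higher. In glycolysis 19.2% fell and 7.69% rose, and in the cycle 20.5% and 7.69%. Of protein-coding genes at 10 to 100 CPM 17.3% fell and 16.4% rose, and at 100 CPM or more 19.3% and 17.2%. The shares lower in both lists were thus near those of other well-expressed genes. Of 26 glycolysis genes 5 fell (4 and 3) and 2 rose (1 and 1). Slc16a1, the lactate carrier MCT1, had 169.6, 272 and 192 CPM in None and 63.4 and 71.7 CPM with Kira8 (-1.64 ± 0.20, adjusted p = 0.000291). Pfkfb4, which sets the level of an activator of glycolysis, had 6.13, 5.28 and 4.42 CPM in None and 19 and 15.6 CPM with Kira8 (1.71 ± 0.20, adjusted p = 0.000237). Of 39 genes of the cycle and pyruvate entry 8 fell (3 and 1) and 3 rose (1 and 2). Glud1, which feeds glutamate into the cycle, had 415, 384 and 425 CPM in None and 823 and 791 CPM with Kira8 (0.98 ± 0.14, adjusted p = 0.000637). Idh3a, a subunit of the NAD-dependent isocitrate dehydrogenase, had 103, 134 and 85 CPM in None and 38.8 and 41.8 CPM with Kira8 (-1.41 ± 0.20, adjusted p = 0.000578).

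Most genes of the cholesterol list rose. Of 29 genes of cholesterol synthesis and uptake 22 rose (12 and 13) and none fell, with a median of 0.85. Msmo1 and Nsdhl, which help remove methyl groups from sterol intermediates, had 52.9, 63.6 and 75.2 CPM in None and 193 and 202 CPM with Kira8, and 31, 27.9 and 26.9 CPM in None and 63.6 and 70.4 CPM with Kira8. Their changes were 1.63 ± 0.17, adjusted p = 0.000114, and 1.23 ± 0.14, adjusted p = 0.000237. Abca1, the exporter of cholesterol that LXR induces, rose as well (8.65, 13.4 and 14.2 against 39.5 and 47.9 CPM, 1.85 ± 0.28, adjusted p = 0.000902), in a list of LXR targets with 4 of 12 higher (1 and 2) and none lower. Fatty acid synthesis and desaturation had 9 of 21 higher (1 and 5) and 2 lower (2 and 2), or 4 lower without Kira8+Stattic replicate 1. Scd2, the desaturase of lymphoid cells, had 544, 766 and 901 CPM in None and 1477 and 1467 CPM with Kira8 (0.998 ± 0.22, adjusted p = 0.00749, with adjusted p of 0.0575 and 0.059 without Kira8 replicate 1 and 3). The acyl-CoA synthetases Acsl3 and Acsl5 differed in direction. Acsl3 had 30.1, 50.2 and 41.4 CPM in None and 96.7 and 89.3 CPM with Kira8 (1.20 ± 0.20, adjusted p = 0.0016). Acsl5 had 272, 383 and 353 CPM in None and 149.8 and 151 CPM with Kira8 (-1.16 ± 0.17, adjusted p = 0.000893). Dgat1, which makes triglyceride, had 76.4, 68.4 and 54 CPM in None and 340.4 and 281 CPM with Kira8 (2.23 ± 0.21, adjusted p = 7.83e-05). Agpat3, an acyltransferase of an earlier step, fell (255, 206 and 248 against 90.3 and 85.8 CPM, -1.42 ± 0.17). The core of the sterol element, CACCCCAC, was found upstream of 3.65% of genes that rose and 2.26% of those that fell, beside 2.86% of all. Msmo1 was not among the 55 genes that rose with it, and the 35 that fell with it include Calr and Hsp90b1. The letters are thus not a trait of the cholesterol list. The stretch of Hmgcs1, a rate-setting enzyme of the pathway at 1.70 ± 0.17, is shown as a single example with it in capitals.
Hmgcs1, chr13:119690195-119690242, plus strand: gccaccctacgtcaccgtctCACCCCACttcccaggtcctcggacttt

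Over 50% of the autophagy genes rose. Of 44 autophagy genes 23 rose (16 and 16), 2 fell (0 and 0) and 19 were not called (median 0.55). Ulk1, the kinase that starts autophagy, had 40.3, 28.1 and 47.1 CPM in None and 239.7 and 237 CPM with Kira8 (2.63 ± 0.19, adjusted p = 1.9e-05). Atg2a, which moves lipid into the growing membrane, had 38.8, 35.7 and 49 CPM in None and 157 and 146 CPM with Kira8 (1.88 ± 0.16, adjusted p = 3.59e-05). The cargo receptor Nbr1 had 39.2, 46.6 and 50.03 CPM in None and 133 and 129 CPM with Kira8 (1.53 ± 0.17, adjusted p = 0.000168). Of 17 V-ATPase genes, which acidify the lysosome, 8 rose (3 and 4), with Atp6v1d at 0.95 ± 0.17, adjusted p = 0.00216. Lysosomal hydrolases and membrane proteins were mixed, with 14 of 51 higher (9 and 8) and 5 lower (2 and 2). Gla, alpha-galactosidase A, had 7.92, 8.03 and 8.73 CPM in None and 44 and 34 CPM with Kira8 (2.25 ± 0.17, adjusted p = 2.76e-05). The calcium channel Mcoln1 had 24.4, 23 and 26.6 CPM in None and 71 and 69.6 CPM with Kira8 (1.51 ± 0.19, adjusted p = 0.000321), whereas beta-glucuronidase, Gusb, fell (73.6, 90.8 and 97.7 against 34.6 and 29.7 CPM, -1.44 ± 0.20, adjusted p = 0.000497). The chloride carriers Clcn6 (1.23 ± 0.22) and Clcn7 (1.42 ± 0.18, adjusted p = 0.000368) and the purinergic channel P2rx4 (1.43 ± 0.20, adjusted p = 0.000528), all of late endosomes and lysosomes, rose too. Flcn, which controls the lysosomal Rag GTPases and by them TFEB and TFE3, had 35.4, 36.9 and 37.8 CPM in None and 142 and 134 CPM with Kira8 (1.91 ± 0.14, adjusted p = 1.9e-05). The letters TCACGTGA, a form of the site that TFEB and TFE3 bind, which contains the E-box above, were found upstream of 2.33% of genes that rose and 0.97% of genes that fell, beside 1.38% of all promoters. Mcoln1 and Gla are 2 of the 35 genes that rose with it, and their sites are shown in capitals, both in annotated exons and therefore cut short.
Mcoln1, chr8:3500468-3500485, plus strand: cccgcTCACGTGAccgcg
Gla, chrX:134601221-134601238, minus strand: attgaTCACGTGAgcatc

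Of 36 FOXO axis and quiescence genes 21 rose (13 and 15), 1 fell (0 and 0) and 14 were not called (median 0.75). Irs2, an insulin receptor substrate that FOXO induces, had 14.5, 28.8 and 23.5 CPM in None and 152 and 163 CPM with Kira8 (2.82 ± 0.23, adjusted p = 3.59e-05). Ccng2, an atypical cyclin of arrested cells, had 33.2, 26.7 and 38 CPM in None and 172 and 164 CPM with Kira8 (2.36 ± 0.17, adjusted p = 1.9e-05). The CDK inhibitor Cdkn1b, p27, had 51.5, 45.9 and 83.7 CPM in None and 208 and 201 CPM with Kira8 (1.76 ± 0.23, adjusted p = 0.000402). The groups did not overlap for any of them. Of 33 regulators of mTORC1 8 rose (5 and 5) and 1 fell (0 and 0). With Flcn and Ddit4, the former included Castor2, a sensor that holds mTORC1 back (26, 19.3 and 27.5 against 64.9 and 50.03 CPM, 1.24 ± 0.18), and Tsc1 (23.7, 41.1 and 51 against 93.9 and 100.3 CPM, 1.33 ± 0.25). In the PI3K and AKT list 9 of 31 rose (5 and 5) and 5 fell (0 and 0), the last count being 2 or 3 when any None library or Kira8+Stattic replicate 2 or 3 was left out. Pik3ip1, an inhibitor of PI3K, had 19.7, 6.94 and 19 CPM in None and 78.5 and 65.2 CPM with Kira8 (2.24 ± 0.33, adjusted p = 0.000811). The adaptor Gab2 had 6.35, 6.23 and 10.4 CPM in None and 31.5 and 42.6 CPM with Kira8 (2.27 ± 0.24, adjusted p = 0.000115). Rictor, a subunit of mTORC2, had 41.2, 75 and 77.9 CPM in None and 163 and 194 CPM with Kira8 (1.46 ± 0.26). Of 16 genes that respond to glucocorticoids, which share Cxcr4, Il7r, Pik3ip1, Ddit4 and others with these lists, 8 rose (7 and 8) and 1 fell (0 and 0). Of 45 replication genes 16 fell (8 and 7) and none rose. Orc1, a subunit of the origin complex, had 24.7, 34 and 33.3 against 9.29 and 11.2 CPM (-1.58 ± 0.20, adjusted p = 0.000372). In the mitosis list 18.4% of genes were called lower and 2.04% higher. Of protein-coding genes at 10 to 100 CPM 17.3% were lower and 16.4% higher, and at 100 CPM or more 19.3% and 17.2%. The share of mitosis genes lower thus did not stand out. Of 49 mitosis genes 9 fell (1 and 0) with 1 higher; these calls were nearly all lost without either Kira8 library. Among G1 genes 8 of 31 fell (2 and 3), including cyclin D3, Ccnd3 (207, 135 and 179.8 against 86.1 and 82.7 CPM, -1.04 ± 0.18), and Tfdp1, the partner of E2F (-1.08 ± 0.19).

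**Figure D3:**
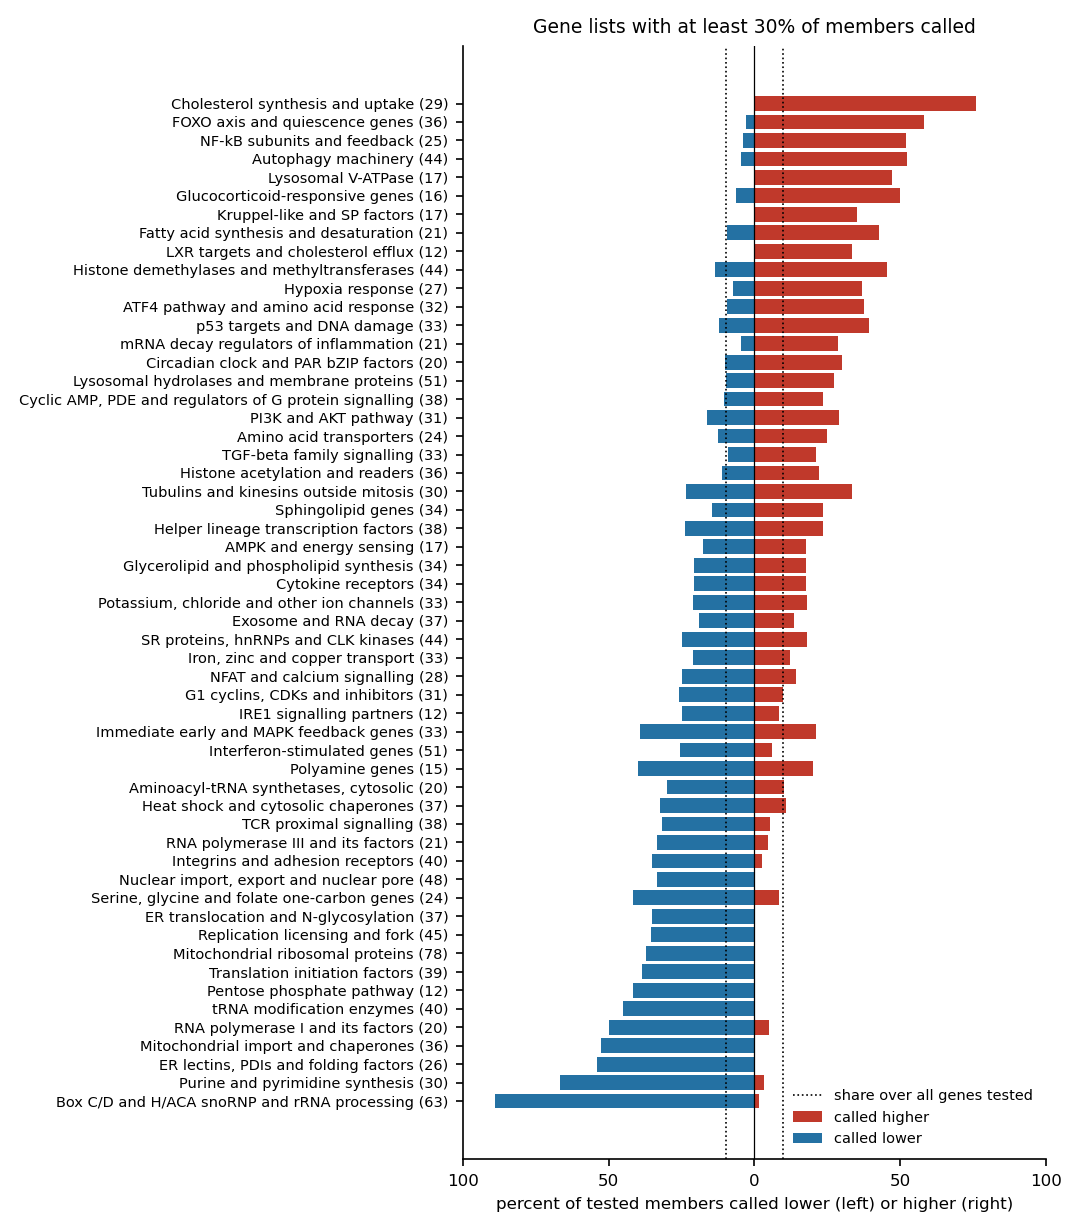
Percent of tested members called lower (bars to the left) and higher (bars to the right) with Kira8 in each of the lists with at least 30% of members called; the number tested is in parentheses and the dotted lines mark 9.59% and 9.7%, the shares over all genes tested. rRNA processing has the longest bar to the left, 56 of 63 genes, and cholesterol synthesis the longest to the right, 22 of 29. The dotted lines include weakly expressed and noncoding genes. Of protein-coding genes at 10 to 100 CPM 17.3% were called lower and 16.4% higher, and at 100 CPM or more 19.3% and 17.2%.

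The called genes of proximal T cell receptor signalling were mostly lower. Of 38 proximal signalling genes 12 fell (5 and 3) and 2 rose, or 4 without None replicate 2. Lcp2, the adaptor SLP-76, had 631, 801 and 553 CPM in None and 231 and 269 CPM with Kira8 (-1.41 ± 0.21, adjusted p = 0.000743). Lat, the membrane adaptor, had 347, 269 and 316 CPM in None and 159 and 153 CPM with Kira8 (-0.998 ± 0.16, adjusted p = 0.00132). Themis, an adaptor of T cells, changed by -1.55 ± 0.21. Cblb, a ubiquitin ligase that restrains this signal, had 218, 352 and 242 CPM in None and 833 and 749.7 CPM with Kira8 (1.55 ± 0.20, adjusted p = 0.000358). In the MAPK feedback and immediate early list 13 of 33 fell (7 and 9) and 7 rose (5 and 5). Dusp6 and Spry2, which the ERK pathway induces, fell (102, 148 and 123 against 28.4 and 28.1 CPM, -2.14 ± 0.23, and 6.91, 5.99 and 5.64 against 1.37 and 0.968 CPM, -2.40 ± 0.28). Dusp1 and Dusp10, which act on p38 and JNK, rose (11.1, 17 and 8.998 against 43.6 and 39.95 CPM, 1.76 ± 0.23, and 14.8, 13.4 and 11.7 against 28 and 30.7 CPM, 1.14 ± 0.15). Of 28 NFAT and calcium genes 7 fell (4 and 2) and 4 rose (1 and 1), with Egr3 at 125, 116 and 163 against 44.8 and 47.7 CPM (-1.54 ± 0.22, adjusted p = 0.000707). The phosphodiesterases Pde4b (41.8, 64.8 and 46.7 against 179 and 173 CPM, 1.78 ± 0.21, adjusted p = 0.000212) and Pde4d (1.70 ± 0.21), which break down cyclic AMP, and the lipid and proton receptor Gpr132 (1.40 ± 0.17) rose. Rgs16, a brake on G protein signalling, had 199.9, 366 and 192 CPM in None and 55.1 and 54.2 CPM with Kira8 (-2.21 ± 0.28, adjusted p = 0.00033).

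Genes of NF-kB and its feedback mostly rose where they were called. Of 25 subunits and feedback genes 13 rose (10 and 7), 1 fell (0 and 0) and 11 were not called (median 0.57). Tnfaip3, the deubiquitinating enzyme A20 (ENSMUSG00000019850, chromosome 10, 19000910 to 19015657, minus strand), had 86.6, 169.6 and 86 CPM in None and 596 and 573 CPM with Kira8 (2.36 ± 0.25, adjusted p = 0.000153). Its partner Tnip1 had 90.9, 76 and 84.3 CPM in None and 208 and 235 CPM with Kira8 (1.40 ± 0.17, adjusted p = 0.000262). Relb, a subunit of the noncanonical pathway, and Map3k14, its kinase NIK, rose by 1.13 ± 0.17 and 1.08 ± 0.18. Zc3h12a, an RNase that degrades cytokine mRNAs, had 37.6, 33.6 and 29.8 CPM in None and 64.8 and 73 CPM with Kira8 (1.03 ± 0.16, adjusted p = 0.00126). The antiviral RNA-binding protein Zc3hav1 had 243, 281 and 332 CPM in None and 643 and 582 CPM with Kira8 (1.10 ± 0.16, adjusted p = 0.000716), in a list of mRNA decay regulators with 6 of 21 higher (4 and 2) and 1 lower, or 3 lower without None replicate 1. Tgif1, a repressor of TGF-beta signalling, had 48.2, 70.4 and 41.9 CPM in None and 297 and 309.7 CPM with Kira8 (2.50 ± 0.20, adjusted p = 3.59e-05). The inhibitor genes Id2 (-1.16 ± 0.20) and Id3 (-1.79 ± 0.28) fell. The TGF-beta list as a whole had 7 of 33 higher (2 and 3) and 3 lower (4 and 2).

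The interferon receptor genes Ifnar1, Ifngr1 and Ifngr2 rose, and the called interferon-stimulated genes were mostly lower. Ifnar1, a chain of the type I receptor, had 56.6, 72.3 and 71.4 CPM in None and 198 and 203 CPM with Kira8 (1.58 ± 0.16, adjusted p = 0.000104). Ifngr1 and Ifngr2, the chains of the interferon-gamma receptor, had 83.4, 70.7 and 61.3 CPM in None and 219 and 186 CPM with Kira8, and 23.8, 17.9 and 18 CPM in None and 49.9 and 46.3 CPM with Kira8. All Kira8 libraries were above all None libraries for the 3 genes, and the changes of the latter pair were 1.496 ± 0.17, adjusted p = 0.000224, and 1.27 ± 0.18, adjusted p = 0.000616. Il7r rose by 1.10 ± 0.15, and over 34 cytokine receptors 6 rose (5 and 4) and 7 fell (3 and 2), or 4 without None replicate 2. Of 51 interferon-stimulated genes 13 fell (5 and 1), 3 rose (2 and 1) and 35 were not called (median -0.48). Irgm1 and Ifi47, GTPases that interferon-gamma induces, had 297, 238 and 277 CPM in None and 143 and 121 CPM with Kira8, and 405, 268 and 351 CPM in None and 189 and 150.3 CPM with Kira8, with changes of -1.03 ± 0.19 and -1.01 ± 0.21 that lost their call without Kira8 replicate 3 (adjusted p = 0.0582 and 0.0922). Gbp5 went the opposite way (421, 343 and 484 against 927 and 855 CPM, 1.10 ± 0.21, adjusted p = 0.00326). Ifng itself, the cytokine that induces much of this set, fell (120.2, 289 and 96.4 against 9.73 and 9.299 CPM), as did 9 of 13 markers of CD8 T and NK cells, which also make it. Ifng changed by -4.15 ± 0.55, and by -3.51 without None replicate 2.

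In the lists of Kruppel-like factors and histone methylation the higher calls outnumbered the lower. In histone acetylation 22.2% were higher and 11.1% lower, which stood out less. Of protein-coding genes at 10 to 100 CPM 16.4% were higher and 17.3% lower, and at 100 CPM or more 17.2% and 19.3%. Of 17 Kruppel-like and SP factors 6 rose (3 and 3) and none fell. Klf4, which restrains proliferation, had 5.57, 5.97 and 2.60 CPM in None and 18.7 and 22.5 CPM with Kira8 (2.13 ± 0.28, adjusted p = 0.000389). Klf7 had 27.3, 34.4 and 35.4 CPM in None and 74.9 and 98.3 CPM with Kira8 (1.42 ± 0.19, adjusted p = 0.000498). Of 44 histone demethylases and methyltransferases 20 rose (11 and 7) and 6 fell (4 and 4). The demethylases Kdm2b and Kdm4a had 94.6, 167 and 134 CPM in None and 463 and 411 CPM with Kira8, and 56.1, 60.6 and 73.4 CPM in None and 124 and 136 CPM with Kira8 (1.73 ± 0.21 and 1.03 ± 0.16). The arginine methyltransferases Prmt3 (-1.10 ± 0.17) and Prmt5 (-1.02 ± 0.16) fell. Of 36 histone acetylation genes 8 rose (5 and 5) and 4 fell (3 and 2), with the deacetylases Hdac4 and Hdac5 higher (1.17 ± 0.20 and 1.41 ± 0.21) and the acetyltransferase Kat2a lower (-1.45 ± 0.25). Of 38 helper lineage factors 9 rose (6 and 4) and 9 fell (6 and 5). Tbx21, the factor T-bet of Th1 cells, had 118, 149.99 and 143 CPM in None and 34.1 and 32.1 CPM with Kira8 (-2.05 ± 0.26, adjusted p = 0.00033). Batf3 had 20.3, 18.6 and 14.4 CPM in None and 5.01 and 5.29 CPM with Kira8 (-1.78 ± 0.24, adjusted p = 0.000461). The repressor Zeb1 had 44.5, 77.4 and 56.2 CPM in None and 197 and 195 CPM with Kira8 (1.72 ± 0.22, adjusted p = 0.000354). Clock genes had 6 of 20 higher (4 and 2) and 2 lower (1 and 1). Arntl was at 31.4, 29.6 and 31.2 against 57.5 and 56.8 CPM (0.89 ± 0.13, adjusted p = 0.00067) and Per2 was at 8.98, 16.9 and 12.7 against 5.13 and 3.51 CPM (-1.57 ± 0.30, and adjusted p = 0.0627 without Kira8 replicate 3).

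Called RNA-processing genes and noncoding RNAs lay in both directions. Clk1, a CLK kinase that phosphorylates SR splicing proteins, had 149.7, 176 and 218 CPM in None and 613 and 621 CPM with Kira8 (1.77 ± 0.18, adjusted p = 0.000114). Clk3 changed by 1.17 ± 0.16, while Hnrnpab fell (965, 1142 and 962 against 422 and 445 CPM, -1.24 ± 0.17, adjusted p = 0.000493). Of 44 SR, hnRNP and CLK genes 8 rose (6 and 6) and 11 fell (2 and 4), or 7 without None replicate 2. The exosome subunits Exosc2 (-1.22 ± 0.21) and Exosc7 (-1.28 ± 0.22) fell and the deadenylase subunits Pan2 (1.13 ± 0.17) and Pan3 (1.03 ± 0.18) rose. Neat1, the long noncoding RNA that scaffolds paraspeckles, had 125, 129.7 and 191 CPM in None and 627 and 676 CPM with Kira8 (2.13 ± 0.26, adjusted p = 0.000286). Dancr, which hosts a snoRNA, had 18.5, 18.3 and 19.2 CPM in None and 6.38 and 5.48 CPM with Kira8 (-1.66 ± 0.29, adjusted p = 0.00231). Vimentin, Vim, had 996, 985 and 685 CPM in None and 319.9 and 270.3 CPM with Kira8 (-1.59 ± 0.20, adjusted p = 0.000291). Profilin, Pfn1, had 1042, 757 and 673 CPM in None and 387 and 353 CPM with Kira8 (-1.15 ± 0.20, adjusted p = 0.002). Of 40 integrins and adhesion receptors 14 fell (7 and 5) and 1 rose (0 and 1). Among those lower were Itgb1 (242, 331 and 343 against 148 and 158 CPM, -0.997 ± 0.17), Ly6a (-1.37 ± 0.20) and Ly6c2 (-2.08 ± 0.32), and Cd226, a costimulatory receptor also of NK and CD8 T cells (-1.73 ± 0.30), beside their lower markers. Tfrc, the transferrin receptor of growing cells, had 686, 1246 and 1120.0 CPM in None and 337 and 351 CPM with Kira8 (-1.56 ± 0.23, adjusted p = 0.000768). The zinc exporter Slc30a1 had 13.9, 16.1 and 14.2 CPM in None and 42.5 and 34.3 CPM with Kira8 (1.38 ± 0.17, adjusted p = 0.000265), with metallothionein 1, Mt1, also higher (1.21 ± 0.23).

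The shares of genes called were also set out by gene features that the test did not use. Protein-coding genes were ordered by total exon length in the GENCODE annotation of mm10 and split into 5 sets of equal size. In the set of the shortest, 45 to 2319 bases, 4.27% of 2953 genes rose and 14.5% fell, and in that of the longest, 7367 to 123179 bases, 20.02% of 2952 rose and 7.995% fell. The shares in between were 7.96%, 11.7% and 15.7% higher and 16.4%, 14.5% and 10.9% lower, and the median change went from -0.24 to 0.19. The labels give a threshold for the RNA integrity number, above 7.0, and no value per library. Of 1088 unconfirmed transcribed loci (the TEC class) 72 rose (6.62%) and 13 fell (1.195%), of 1034 antisense genes 62 rose (5.996%) and 22 fell (2.13%), and of 138 sense-intronic genes 13 rose (9.42%) and none fell. All these shares lie below those over all genes, 9.7% higher and 9.59% lower. Use of strand in counting is not known here, so reads of antisense and intronic genes cannot be told apart from those of their hosts. On the Y chromosome 5 of 14 tested genes rose and none fell, 35.7% of them, where the share over all genes is 9.7%. Ddx3y had 85.1, 153 and 106 CPM in None and 213 and 251 CPM with Kira8 (1.02 ± 0.23). Eif2s3y had 87.6, 105 and 106 CPM in None and 156 and 163 CPM with Kira8 (0.68 ± 0.15). Uty had 19.2, 21.5 and 27.8 CPM in None and 43.4 and 47.8 CPM with Kira8 (0.997 ± 0.18), while Kdm5d was not called (37.7, 55.8 and 55.6 against 62.9 and 62.6 CPM, 0.34 ± 0.20, adjusted p = 0.265). Without Kira8 replicate 3 the adjusted p was 0.0922 for Ddx3y and 0.0867 for Eif2s3y, and without replicate 1 it was 0.0603 for Eif2s3y. Xist, as a share of all counts, was between 0.126 and 1.65 CPM in the None libraries and at 0.643 and 0.989 CPM in Kira8 replicates 1 and 3, and at 9.19 CPM in Kira8 replicate 2; these genes were named after their values were seen.

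Kira8 replicate 2, which the 10-library calls did not use, was set beside them with mitochondrial genes left out. It shares the None libraries with those calls, so the values are a description. Among genes with a mean of at least 50 CPM, its median log2 difference from the None mean, after adding 1 CPM to each, was -1.32 over 778 genes called higher, -1.94 over 2804 not called and -2.58 over 827 called lower. It lay above the None mean in 13.6%, 5.39% and 1.45% of these genes. The order of the 3 sets was that of the other Kira8 libraries, on a scale shifted far below None in all of them. Lpin1, the phosphatidate phosphatase, reached 116 CPM there, near the 131 and 128 CPM of replicates 1 and 3 and above the None mean of 16.6 CPM, and Gla reached 12.7 CPM against a None mean of 8.22 CPM. For Pdia4 it had 34.4 CPM (38 and 33.3 in the other Kira8 libraries), and for Nop2 24.7 CPM (74.5 and 90.3). On a scale shifted so far down, a level below None does not by itself go with a lower call or against a higher one. This holds for Pdia4 and Nop2, and for Mxd1, called higher, which was at 33.6 CPM, below the None mean of 62.4. Sdf2l1, an ER chaperone partner that changed by -1.91 ± 0.17, went against its call at 100.7 CPM, above the None mean of 26.9. With all 3 Kira8 libraries in the 12-library fit, the log2 change was 2.95 for Lpin1, -2.06 for Nop2, -1.74 for Pdia4, 2.08 for Mxd1, 2.67 for Klhl24 and 0.61 for Sdf2l1, none of them called (adjusted p = 0.0676 for Lpin1 and 0.296 to 0.88 for the others). Of the 4093 called genes that both fits tested, 3917 had the same direction with all 12 libraries and 176 the other, with a median shift over all genes of -0.3 (log2). The median of rRNA processing genes was -1.497 in that fit, of cholesterol genes 0.38, of ER folding genes -1.05, of autophagy genes 0.30 and of quiescence genes 0.40, whereas that of the mitochondrial mRNAs was 4.39. Of the 199 genes with values in this text, 194 kept their direction there without passing the test and 4 turned: Gpr83 (0.54), Orc1 (0.33), Sdf2l1 and mt-Nd3 (1.87). Kdm5d was called in neither fit.

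**Figure D4:**
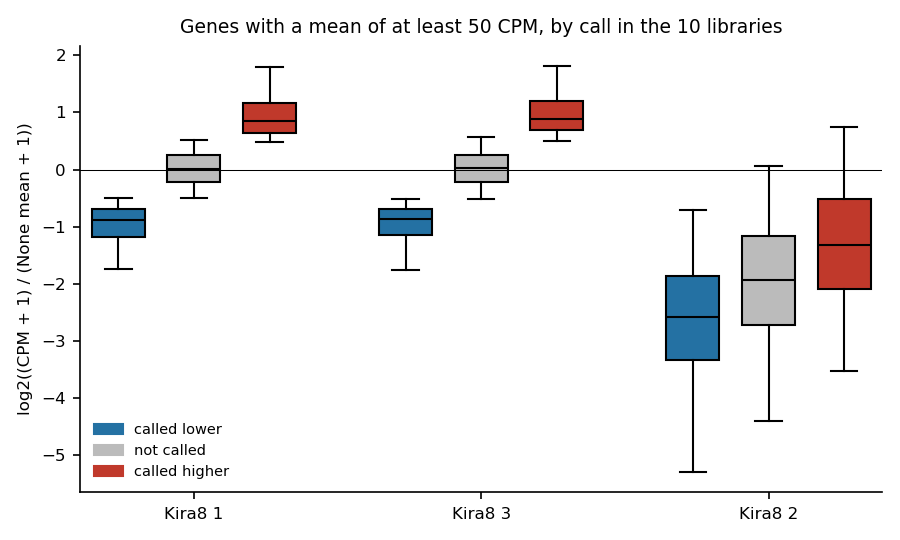
Log2 of each Kira8 library's CPM plus 1 over the None mean plus 1, for genes with a mean of at least 50 CPM, split by their call in the 10-library fit, which used replicates 1 and 3 but not 2; boxes span the quartiles with the median, and whiskers run from the 5th to the 95th percentile. For replicate 2 mitochondrial genes are left out, and its medians are -2.58, -1.94 and -1.32 for genes called lower, not called and called higher.

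The Kira8 change was measured a second time in the presence of Stattic, as Kira8+Stattic minus Stattic. Those libraries enter the comparison with None only through the shared filter, scaling and estimate of spread. With Stattic present, 3 of 21239 genes were called (0.0141%), Gm21982, Gm44503 and the granzyme Gzma, and 874 passed 0.05 before adjustment. The interaction subtracts the change without Stattic from the change with it, and was called for 1810 genes (8.52%), 966 of them higher (4.55%) and 844 lower (3.97%). Of the 3373 genes called with Kira8 alone at a mean of at least 5 CPM, 1528 had a called interaction and 1845 did not. The same None and Kira8 libraries chose these genes and enter the interaction. A share above the 8.52% over all genes is therefore partly built in. The levels show the form of this. Vps37b, an ESCRT-I gene, had 18.8, 26 and 23.5 CPM in None and 272 and 226 CPM with Kira8, but 315 and 203 CPM with Stattic and 259, 272 and 241 CPM with both inhibitors. Nop2 had 263, 266 and 266 CPM in None, 74.5 and 90.3 with Kira8, 49.1 and 47.1 with Stattic and 56.1, 38.7 and 40.8 with both. In both genes the Stattic libraries without Kira8 were already near or beyond the Kira8 level. Egr1, an immediate early factor, had 275, 297 and 366 CPM in None, 137 and 132 CPM with Kira8, 271 and 326 CPM with Stattic and 277, 317 and 324 CPM with both, so that it was lower with Kira8 alone (-1.22 ± 0.18) and near the None level with Stattic; it was named after its values were seen. For rRNA processing genes the median change was -1.21 without and 0.09 with Stattic, and 50 of 63 had a called interaction. For cholesterol genes it was 0.85 and 0.14, with 8 of 29. For ER folding genes it was -0.77 and 0.02, with 9 of 26. For Slc30a1 the interaction was -0.23 ± 0.238, adjusted p = 0.616, so no difference of the Kira8 change was called, with 35.4 and 38.7 CPM with Stattic and 69.6, 88.1 and 89.1 CPM with both. Without 1 library the interaction count was 498 (Kira8 replicate 1), 515 (Kira8 replicate 3), 680 (Stattic replicate 3), 1144 and 1137 (Kira8+Stattic replicates 2 and 3), and with all 12 libraries it was 0 by edgeR, with 3542 before adjustment.

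**Figure D5:**
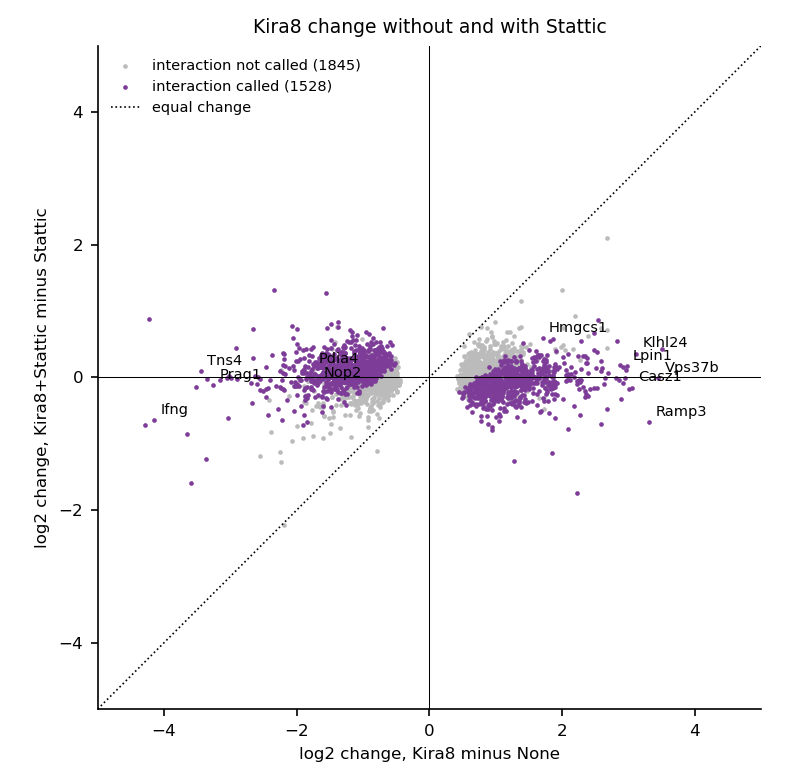
Log2 change with Kira8 alone (Kira8 minus None) against the change in the presence of Stattic (Kira8+Stattic minus Stattic) for the 3373 genes called with Kira8 alone at a mean of at least 5 CPM; purple points are the 1528 with a called interaction and the dotted line marks equal change. Most points lie close to 0 on the vertical axis, whatever their change with Kira8 alone. The genes were chosen by their change on the horizontal axis, whose libraries also enter the interaction.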

How the data were processed

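RNA from mouse Th17 cells was sequenced in 12 libraries, 3 each titled None, Kira8, Stattic and Kira8+Stattic, and groups and replicate numbers come from these titles. The deposited values are raw read counts for 55401 genes. Per the labels' protocols RNA was extracted with Trizol, and per the submitters' processing notes the build was mm10. The sources used here do not give the aligner, counter, annotation or use of strand, which leaves counts of antisense, overlapping and near-identical genes uncertain.

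Counts were filtered with filterByExpr, scaled by TMM and tested with edgeR 4.0.16's quasi-likelihood test (R 4.3.3) in a fit with a coefficient per group. A gene was called where its p, adjusted by Benjamini-Hochberg across the whole table of tested genes, was under 0.05. The fit was made with 12 libraries, and with 10, without Kira8 replicate 2 and Stattic replicate 2, which sets the shared spread of the gene values. In the 10-library fit Kira8 has 2 libraries, and 3 counts equal 0.0474 to 0.0521 CPM in None and Kira8. Alternatives used DESeq2 1.42.0, limma 3.58.1 (voom), other scalings and filters, a 1.5-fold test, a replicate block, None and Kira8 libraries alone, and each replicate left out. Gene coordinates and types are those of GENCODE for mm10 and promoters those of RefSeq for GRCm38.p6. On simulated counts of 21239 genes for this comparison, 39 of 100 genes changed 2-fold and 99 of 100 changed 4-fold were recovered, with 8 false calls. The closest pair of replicates, Kira8 1 and 3, differed by a chi-square of 30.0 per gene, so none was counted as a copy.

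The members, the 73 gene lists and the tests were chosen with earlier results of these data known. Genes were named by a rule: with groups apart and a mean of at least 5 CPM, the 25 with the largest change, the 10 with the smallest adjusted p and the 10 with the highest level in each direction; up to 4 members of each list with the smallest adjusted p; a short list of IRE1, cytokine and survival genes; and the 5 with the largest interaction in each direction. A part of these is named, and genes outside the rule are marked as named after their values were seen. Counts per list and per marker list without each replicate were added after seeing the data.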

Additional observations from a re-analysis of the deposited data

Results flagged for a closer look

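The Kira8 change differed with Stattic for 1810 genes by the interaction test in edgeR. Among called genes with a mean of at least 5 CPM, the 5 with the largest difference in each direction (log2, change with Stattic minus change without) follow, with predicted and RIKEN genes left out. Clstn3 had 2.76, 0.462 and 2.07 CPM in None, 11.8 and 9.35 with Kira8, 9.75 and 7.09 with Stattic and 5.68, 4.23 and 5.54 with both, an interaction of -3.29 ± 0.7, adjusted p = 0.0154. Cyp1a1, a target of the aryl hydrocarbon receptor, had 4.30, 1.09 and 6.004, 12.4 and 23.2, 1.505 and 0.482 and 0.249, 0.198 and 0.426 CPM in the same order (-3.97 ± 0.907, adjusted p = 0.0209), and its call with Kira8 alone was lost without Kira8 replicate 3 (adjusted p = 0.205). Ramp3 had 16.3 and 11.7 CPM with Stattic and 7.12, 12.1 and 7.19 with both (-3.98 ± 0.605, adjusted p = 0.00379), Sv2c 6.06 and 10.5 and 5.26, 6.88 and 7.72 CPM (-3.22 ± 0.388, adjusted p = 0.00143) and Vps37b the levels given above (-3.46 ± 0.287, adjusted p = 0.000325). Ddit3, the stress factor CHOP, is given for its role and not for its size, and had 13.9, 12.8 and 13.8 CPM in None, 42 and 58.5 with Kira8, 95.2 and 94.5 with Stattic and 89.1, 119 and 118 with both (-1.70 ± 0.25, adjusted p = 0.00318).

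In the other direction, F2rl2 had 1.35 and 2.24 CPM with Stattic and 0.880, 1.55 and 0.827 with both (3.56 ± 0.556, adjusted p = 0.00417), Tnfrsf21 0.977 and 0.366 and 1.17, 1.55 and 0.646 CPM (3.39 ± 0.645, adjusted p = 0.00945), Tns4 3.91 and 1.21 and 3.65, 3.01 and 1.58 CPM (3.54 ± 0.749, adjusted p = 0.015) and Ifng 18.1 and 8.15 and 7.997, 11.7 and 5.42 CPM (3.50 ± 0.688, adjusted p = 0.0109). Fcer2a, a B cell receptor for IgE, had 14.4, 20.6 and 8.97 CPM in None, 1.12 and 0.434 with Kira8, 0.567 and 0.193 with Stattic and 1.17, 0.757 and 0.207 with both (5.11 ± 0.998, adjusted p = 0.0106). Its change with Kira8 alone was -4.23 ± 0.73, and -5.07 without Kira8 replicate 1.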

How the results depend on the processing

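In the 10-library fit the 4097 calls became 1359 in a test against a 1.5-fold change and 1642 to 4118 when 1 replicate was left out, 1802 without Kira8 replicate 1 and 1642 without replicate 3. With DESeq2 (5328), voom (4375), RLE scaling (4130), library size alone (3975), unfiltered genes (3622), genes over 1 CPM only (4528), None and Kira8 libraries alone (3707) and without mitochondrial genes (4087) the count stayed within 1.5 times; the same settings kept the direction of every called gene that they tested. With all 12 libraries 0 genes were called, against 1141 with DESeq2, 3 with voom, 3 with RLE scaling, 3 with a filter of more than 1 CPM, 4672 with sample quality weights, and 0 to 88 without 1 replicate (88 without Stattic replicate 2). The weights kept 3670 of the 4097 calls. The interaction count of 1810 became 0 with all 12 libraries and 498 to 2066 without 1 replicate. With all 12 libraries the log2 change of Gpr83 was 0.54, of Orc1 0.33, of Sdf2l1 0.61 and of mt-Nd3 1.87, of the opposite sign. The cause of these differences was not tested. Among 73 lists, the count of called members moved by over 1.5 times in 57 without Kira8 replicate 1, 63 without replicate 3, 71 with all 12 libraries, 10 with DESeq2, 3 with None and Kira8 libraries alone and 0 to 4 without another library. Deviations of same-numbered None and Kira8 libraries from their group means had r = -0.173, -0.101 and 0.139. The Kira8 mean included replicate 2, which stood apart and largely set these values. They therefore cannot show whether the numbers pair the samples. With the replicate block 4423 genes were called and 1784 for the interaction. With 2 Kira8 libraries, changes near 2-fold were often missed in simulated counts. The simulation changed only 100 genes by each fold, far fewer than the 4097 called here. The adjusted threshold is stricter with so few, so that recovery does not carry over to these data.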
